A study of Mus musculus with 6 samples.

Results

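The genes described here are 10 interferon-inducible antiviral effectors, *Rsad2*, *Cmpk2*, *Bst2*, *Mx1*, *Mx2*, *Rtp4*, *Mov10*, *Samhd1*, *Xaf1* and *Ifi44*, picked by name from the 29097 genes of the deposited expression table. They were read in neutrophils sorted from peripheral blood (PB) as CD45+CD11b+Ly6G+ cells. The mice were 8-week-old C57BL/6 males that either carried silk ligatures on their second molars for 14 d (ligature-induced periodontitis, LIP, labelled Lig) or were left without ligatures for the same time (Ctrl), and the study's methods name no transgene or deletion in either group. Each group had 3 Smart-seq2 libraries, each made from the pooled neutrophils of 5 mice, so the spread between libraries is a spread between pools and not between single animals. Of the 10 genes, 8 had a mean FPKM (fragments scaled by gene length and library size) of 1 or more over the 6 libraries and were tested, while *Mx2* and *Ifi44* lay under this limit.

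Type I interferon (IFN-I) binds the receptor chains IFNAR1 and IFNAR2, and the kinases JAK1 and TYK2 then pass the signal to transcription factors, IRF9 among them, that bind interferon-stimulated response elements (ISREs) in the promoters of antiviral genes. The genes described here act at different steps of viral growth. Viperin (*Rsad2*) and CMPK2 act on cytidine nucleotides, SAMHD1 breaks down deoxynucleotides, the MX proteins are dynamin-like GTPases that block incoming or replicating viruses, MOV10 is an RNA helicase, and tetherin (*Bst2*) holds budding virions at the cell surface. Common laboratory strains, C57BL/6 among them, carry defective *Mx1* and *Mx2* alleles, and the deposited table lists *Mx2* as a polymorphic pseudogene.

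The libraries held 52186555 to 57262379 counts each. The groups differed in more than the genes described here. Markers of mature neutrophils, the labelled cell type, summed to 16140 to 17599 CPM (read counts scaled to library size) in Ctrl and to 61163 to 66080 CPM in LIP, with all 20 higher in every LIP library. Erythroid markers went the other way, at 129776 to 138144 CPM in Ctrl against 17587 to 18327 CPM in LIP, with 11 of 11 lower. B cell markers summed to 18421 to 20482 CPM in Ctrl and to 3831 to 3855 CPM in LIP with 12 of 12 lower, and T cell markers to 997 to 1065 CPM and 210 to 245 CPM with 14 of 14 lower. Monocyte markers summed to 663 to 755 CPM in Ctrl and to 1362 to 1480 CPM in LIP, with 7 of 8 higher, and platelet markers to 871 to 1113 CPM and 2313 to 2725 CPM with 6 of 6 higher. No marker on these lists was at 0 in all libraries. Of all 10440 genes tested, 30.3% were higher in every LIP library than in any Ctrl library. Lower in the same way were 33.1%. Mitochondrial transcripts took 3.40% to 4.24% of counts in Ctrl and 2.13% to 2.31% in LIP. The part of these differences in the values below was not tested, and in bulk libraries fewer cells of a type and less RNA per cell cannot be told apart.

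**Figure D1:**
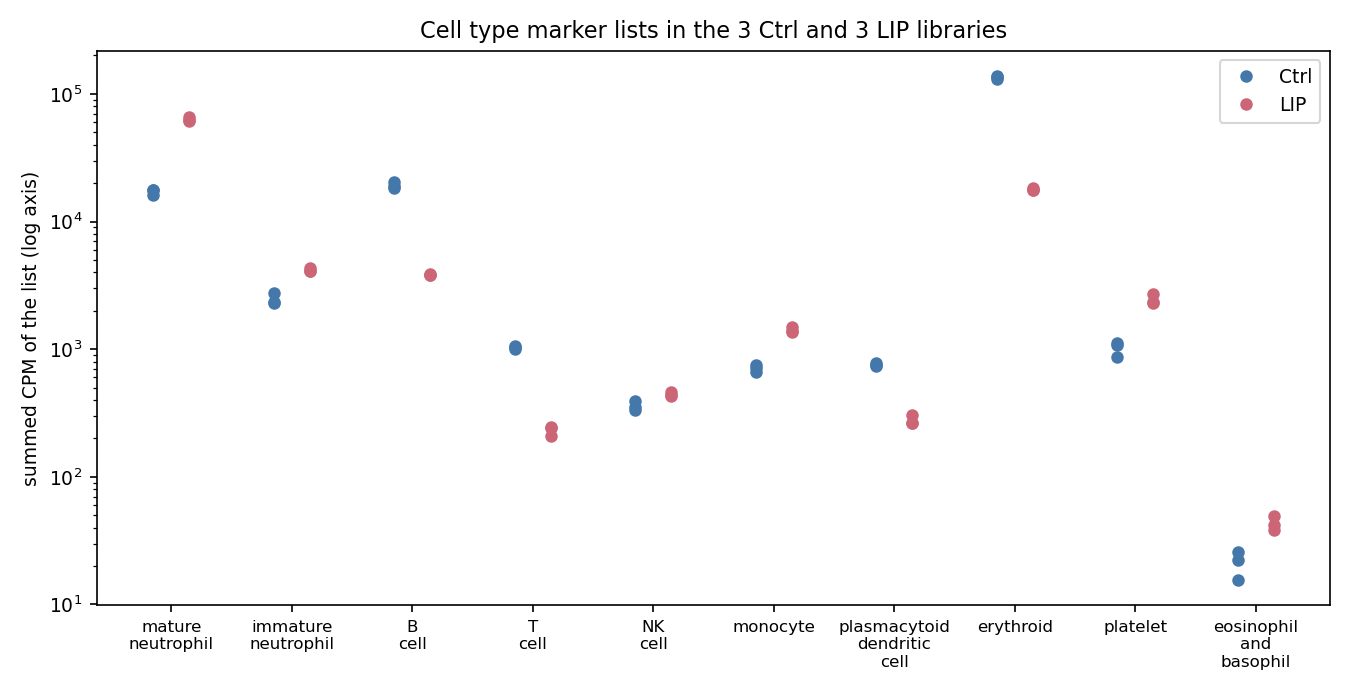
Summed CPM (TMM-scaled, log axis) of each cell type marker list in the 3 Ctrl and 3 LIP libraries, one point per library. The summed levels of mature and immature neutrophil, NK cell, monocyte, platelet and eosinophil and basophil markers lie higher in all LIP libraries than in any Ctrl library, whereas those of B cell, T cell, plasmacytoid dendritic cell and erythroid markers lie lower.

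Promoter sequences from RefSeq (build GRCm38.p6, 250 bases before to 50 bases after the start) were found for 7 of the 10 genes, not for *Mx1*, *Mx2* or *Rtp4*. They were searched on both strands for an ISRE core, spelled GAAA, then any 2 bases, then GAAA again. It was present in *Rsad2* and *Bst2* and in no promoter window of *Cmpk2*, *Mov10*, *Samhd1*, *Xaf1* or *Ifi44*. Of 27025 genes with a promoter of this length, 3.99% held these letters, against 21 of 42 on the list of other antiviral effectors described below. The 150 bases before the start are shown on the strand of the gene for the 2 genes that held the core and for *Cmpk2*, the genomic neighbour of *Rsad2*, and capitals mark the core.
*Rsad2*, chr12:26456453-26456602, minus strand: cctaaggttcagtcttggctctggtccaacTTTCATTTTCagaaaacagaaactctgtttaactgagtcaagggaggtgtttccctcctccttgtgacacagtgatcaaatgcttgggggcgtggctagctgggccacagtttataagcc
*Cmpk2*, chr12:26469065-26469214, plus strand: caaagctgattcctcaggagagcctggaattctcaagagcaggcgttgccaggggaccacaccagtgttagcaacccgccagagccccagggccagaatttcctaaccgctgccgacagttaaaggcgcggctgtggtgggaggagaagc
*Bst2*, chr8:71537473-71537622, minus strand: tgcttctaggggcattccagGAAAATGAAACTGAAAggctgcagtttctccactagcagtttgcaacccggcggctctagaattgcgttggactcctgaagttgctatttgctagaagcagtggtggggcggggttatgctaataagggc
The core in *Rsad2* read on the reverse strand and covered bases -120 to -111 counted from the start. *Bst2* held 2 overlapping cores, from -130 to -121 and from -124 to -115, and the STAT core TTCNNNGAA, present in 9.55% of genes, overlapped the first of them at -136 to -128. *Samhd1* held the STAT core alone, at -235 to -227. A match of letters is a description and not a binding site, and a window without a match does not show that no site exists elsewhere.

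Per gene length, the 10 genes spanned several orders of magnitude, and their order differed between the groups. In Ctrl, *Samhd1* came first in each of the 3 libraries, at 66.3 to 73.3 FPKM. *Rsad2* at 49.1 to 54.2 FPKM and *Rtp4* at 40.9 to 52.1 FPKM followed, with ranges that overlapped. *Bst2* lay at 24.5 to 33.8 FPKM, *Cmpk2* at 8.46 to 18.6, *Mov10* at 3.72 to 6.07 and *Xaf1* at 4.66 to 5.21, and the last 2 did not differ beyond their spread. *Mx1*, *Mx2* and *Ifi44* closed the order, with no Ctrl library above 1.67 FPKM.
In LIP, *Rtp4* took the first place in each of the 3 libraries, at 127 to 137 FPKM, ahead of *Samhd1* at 101 to 114 and *Rsad2* at 46.8 to 59.8. *Bst2*, at 23.1 to 25.8 FPKM, and *Cmpk2*, at 20.0 to 25.5, overlapped there, whereas in Ctrl every library had held *Bst2* above *Cmpk2*. *Mov10*, at 12.5 to 15.4 FPKM, stood clear of *Xaf1*, at 3.56 to 5.03. The ratio of *Rtp4* to *Samhd1* FPKM was 0.583, 0.711 and 0.737 in the Ctrl libraries and 1.23, 1.20 and 1.25 in the LIP libraries. A ratio inside a library does not depend on how libraries are scaled against each other. This ratio was not tested, nor was the part of the cell type differences above in it. By rank among the 10440 genes tested, mean FPKM placed *Mov10* at the 45.8th percentile in Ctrl and the 77.0th in LIP, *Cmpk2* at the 72.2nd and the 85.0th and *Rtp4* at the 91.4th and the 96.5th. *Rsad2* and *Bst2* kept nearly the same place, at 92.3 and 92.4 for *Rsad2* and at 86.3 and 85.4 for *Bst2*.

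**Figure D2:**
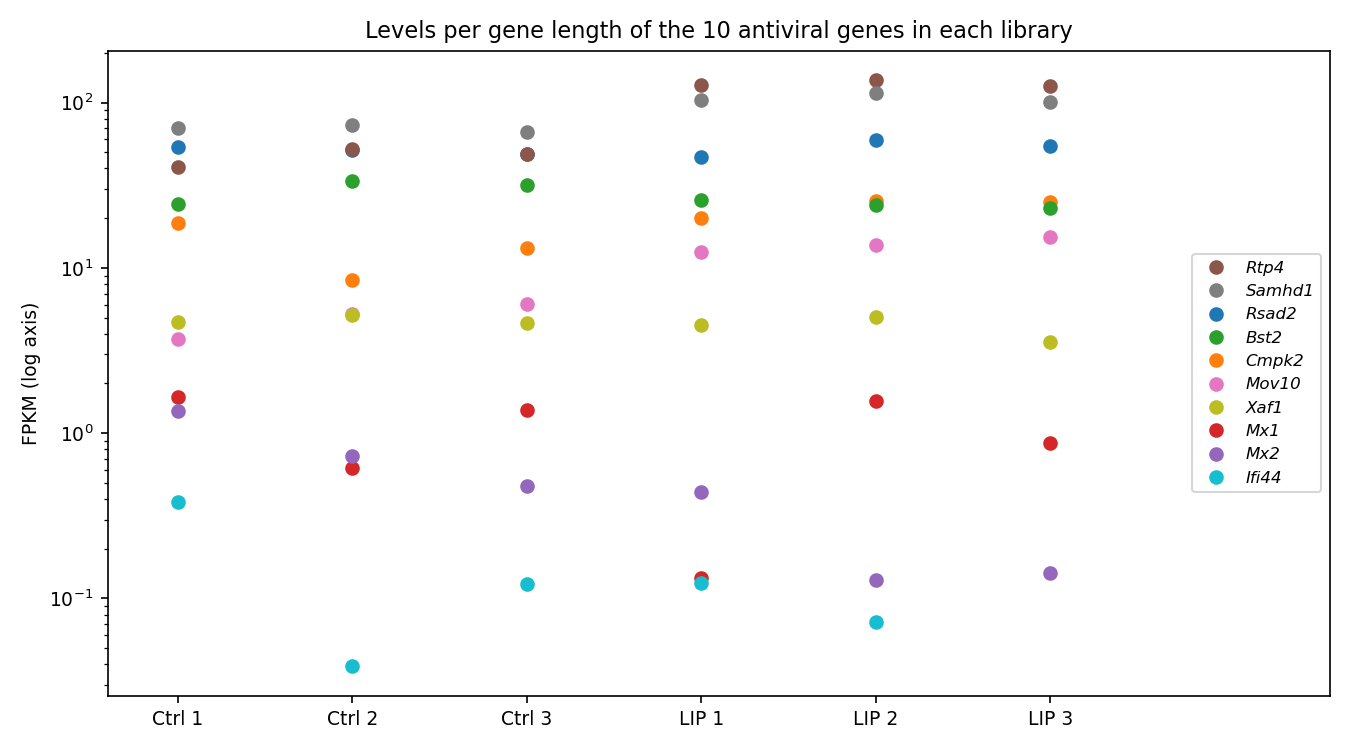
FPKM (fragments scaled by gene length and library size, log axis) of the 10 antiviral genes in each of the 3 Ctrl and 3 LIP libraries, one colour per gene and one point per library. *Samhd1* is highest in the Ctrl libraries and *Rtp4* in the LIP libraries, *Mx1*, *Mx2* and *Ifi44* lie lowest in both groups, and *Ifi44* in LIP 3, listed at 0, is not drawn.

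Between LIP and Ctrl, 5 of the 8 genes tested were higher in LIP, beside 26.5% of all genes tested, and none was lower, beside 27.2%. *Rtp4* and *Mov10* rose most, at 3.42-fold and 3.40-fold, *Cmpk2* rose 2.17-fold and *Samhd1* 1.89-fold, *Rsad2* rose least at 1.29-fold, and *Bst2*, *Mx1* and *Xaf1* were not called. The test was edgeR's quasi-likelihood test on read counts after TMM scaling, called at a Benjamini-Hochberg adjusted p under 0.05 over the 10440 genes that passed the limit on FPKM. The median log2 fold change of these genes was -0.09, against 0.64 for the 8. For the 5 genes called, every LIP library lay above every Ctrl library, as for 30.3% of all genes tested. The directions depend on the scaling. With libraries scaled on the 20 mature neutrophil markers, none of the 8 was higher and 6 were lower in LIP. Of all 10440 genes tested, 42 were then higher and 9374 lower. Values of single libraries below are CPM after TMM scaling, in the order of replicates 1 to 3.

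**Figure D3:**
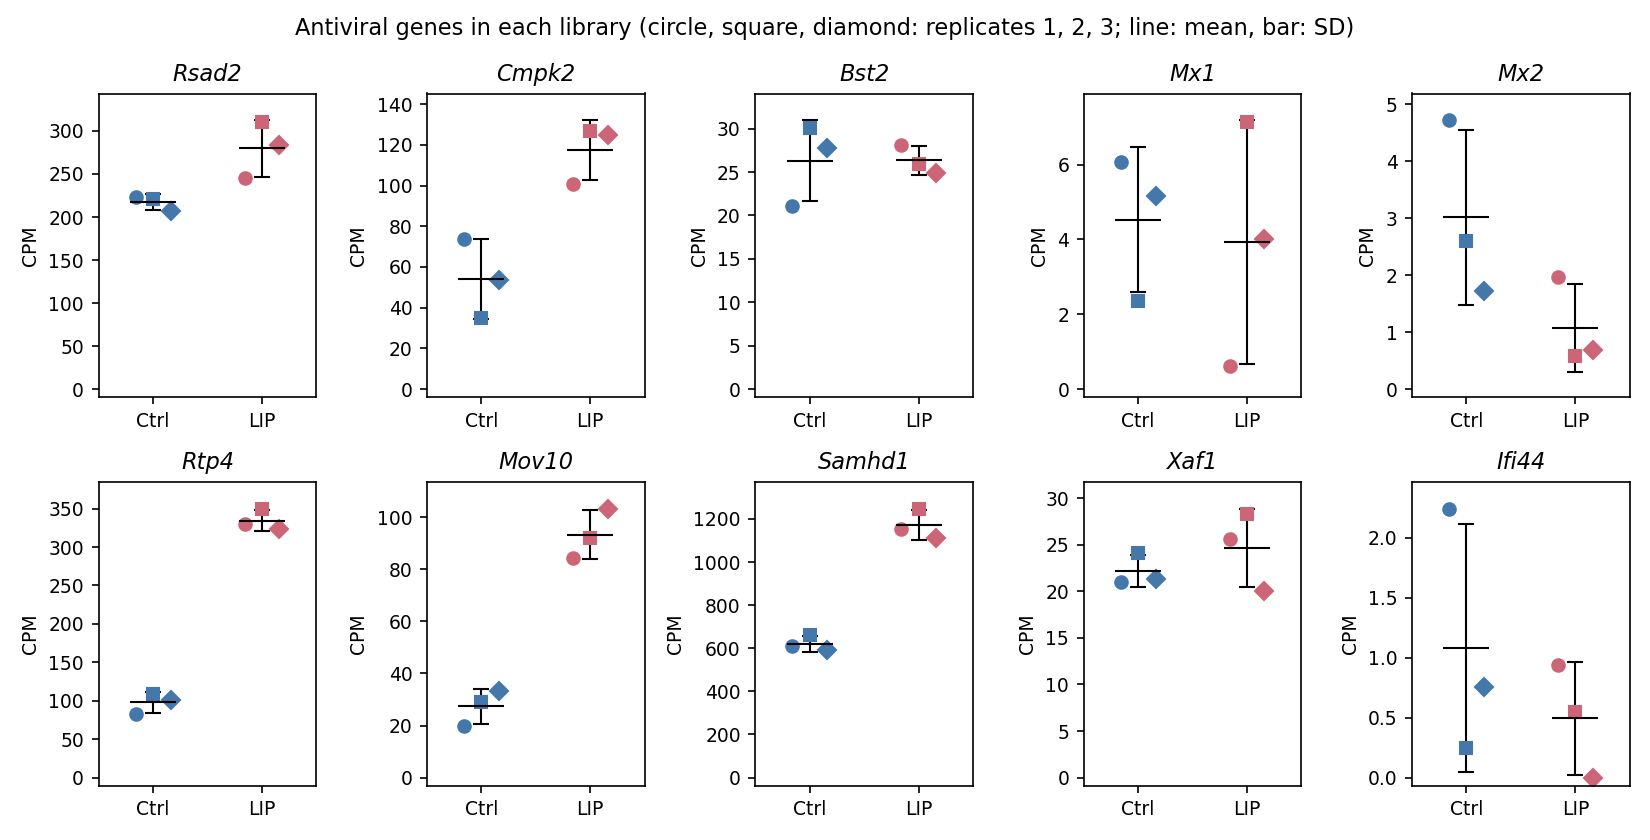
CPM (TMM-scaled) of each of the 10 antiviral genes in the 3 Ctrl (blue) and 3 LIP (red) libraries, each panel with its own axis. Symbols mark the replicate, horizontal lines the group mean and bars the SD. For *Rtp4*, *Mov10*, *Samhd1*, *Cmpk2* and *Rsad2* the LIP points lie above all Ctrl points, and for the other 5 genes the points of the groups overlap.

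*Samhd1* (ENSMUSG00000027639, chromosome 2 from 157097533 to 157135265) encodes a deoxynucleotide triphosphohydrolase, which lowers the supply of DNA precursors that retroviruses and DNA viruses need. With 34444 to 63593 reads it was the most deeply counted of the 10 genes in every library. It measured 612, 660.4 and 590.1 CPM in Ctrl and 1155, 1247 and 1111 CPM in LIP, with coefficients of variation of 5.79% and 5.92%. Every LIP library lay above every Ctrl library, and the rise of 1.89-fold was 0.92 on the log2 scale, with a standard error of 0.0863 (edgeR adjusted p = 1.07e-05).

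*Rsad2* and *Cmpk2* are neighbours on chromosome 12, *Rsad2* (ENSMUSG00000020641) from 26442746 to 26456452 on the minus strand and *Cmpk2* (ENSMUSG00000020638) from 26469204 to 26479837 on the plus strand, so that they point away from each other with 12752 bp between their starts. Viperin, the *Rsad2* product, is a radical SAM enzyme that makes a chain-terminating analogue of CTP, and CMPK2 is a mitochondrial kinase of CMP and UMP. *Cmpk2* measured 73.9, 34.7 and 53.6 CPM in Ctrl and 101, 127 and 125 CPM in LIP. Ctrl libraries varied widely, with a coefficient of variation of 36.2%, but all of them lay below the LIP libraries. The rise of 2.17-fold was 1.12 on the log2 scale, with a standard error of 0.234 (edgeR adjusted p = 0.00239), and without single libraries it ran from 0.90 to 1.42.
*Rsad2* measured 224, 221 and 207 CPM in Ctrl and 245, 310.1 and 284 CPM in LIP. The groups did not overlap, but LIP 1 stood only slightly above the highest Ctrl library. Its rise of 0.36 on the log2 scale had a standard error of 0.112 (edgeR adjusted p = 0.0189), and this call was the least firm of the 5. Leaving out Ctrl 3, LIP 2 or LIP 3 raised the edgeR adjusted p to 0.0769, 0.0790 and 0.0593, and scaling by library totals gave 0.04 on the log2 scale (adjusted p = 0.754). In FPKM, which is scaled to library totals, *Rsad2* averaged 51.7 ± 2.54 over the 3 Ctrl pools and 53.8 ± 6.51 over the 3 LIP pools (mean ± SD).

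A ratio of counts inside a library is free of scaling, and 3 such ratios were compared. The log2 ratio of *Rsad2* to *Cmpk2* counts was 1.60, 2.67 and 1.95 in Ctrl and 1.29, 1.29 and 1.19 in LIP, so in each LIP library *Cmpk2* stood closer to *Rsad2* than in any Ctrl library. The difference was -0.82 (exact permutation test, two-sided, p = 0.1, which no design of 3 libraries against 3 can go below, and 0.15 after adjustment over the 3 ratios). The log2 ratio of *Samhd1* to *Rsad2* was 1.45, 1.58 and 1.51 in Ctrl and 2.24, 2.01 and 1.97 in LIP, a difference of 0.56 with the same exact p.

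*Mov10* (ENSMUSG00000002227, chromosome 3 from 104794836 to 104818563) encodes an RNA helicase of the RNA-induced silencing complex that restrains retroelements. It measured 19.9, 29.2 and 33.1 CPM in Ctrl and 84.5, 92.1 and 103 CPM in LIP. The Ctrl libraries spread by a coefficient of variation of 24.8%, above the median of 16.1% over all genes tested, yet the lowest LIP library held more than the highest Ctrl library. The rise of 3.40-fold was 1.77 on the log2 scale, with a standard error of 0.191 (edgeR adjusted p = 2.79e-05).

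*Rtp4* (ENSMUSG00000033355, chromosome 16 from 23520291 to 23614222, GRCm38) encodes an interferon-inducible chaperone of membrane receptors. It measured 83.1, 109 and 101 CPM in the Ctrl libraries and 330.0, 349.7 and 324 CPM in the LIP libraries. The 3 LIP libraries lay close together, with a coefficient of variation of 4.04%, and all stood far above the Ctrl libraries. The rise of 3.42-fold was 1.77 on the log2 scale with a standard error of 0.123 (edgeR adjusted p = 1.39e-06) and ran from 1.67 to 1.88 when each library was left out in turn. The *Rtp4* gene span overlaps *Masp1* and *Gm45338*, both below the limit on FPKM, and strand use in the counting is not given in the sources used here.

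*Mx1* (ENSMUSG00000000386, chromosome 16 from 97447035 to 97462907) and *Mx2* (ENSMUSG00000023341, chromosome 16 from 97535308 to 97560900) lie 72401 bp apart from start to start. *Mx1* was counted with 366, 141 and 301 reads in Ctrl and with 31, 364 and 189 reads in LIP. In CPM the LIP libraries, at 0.617 to 7.14, enclosed the whole Ctrl range of 2.35 to 6.08, and the log2 fold change of -0.21 had a standard error of 0.697 (edgeR adjusted p = 0.815). *Mx2* was counted with 284, 156 and 101 reads in Ctrl and with 99, 30 and 32 reads in LIP. In CPM the groups overlapped, since LIP 1 at 1.97 lay above Ctrl 3 at 1.73. LIP 1, which held the fewest *Mx1* reads, held the most *Mx2* reads of its group. When *Mx2* was tested without the filter on low genes, its log2 fold change was -1.46 (standard error 0.710, edgeR adjusted p = 0.254). The 2 genes are related copies, so the division of reads between them is uncertain, and the log2 ratio of *Mx1* to *Mx2* ranged from -1.68 to 3.60 within LIP (exact permutation p = 0.7 against Ctrl, before and after adjustment).

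*Bst2* (ENSMUSG00000046718, chromosome 8 from 71534255 to 71537456) encodes tetherin, which is also the surface antigen used to mark plasmacytoid dendritic cells. It measured 21.1, 30.1 and 27.7 CPM in Ctrl and 28.2, 26.0 and 24.9 CPM in LIP. The LIP values lay inside the Ctrl range. The log2 fold change was 0.00 (0.0034, standard error 0.193, edgeR adjusted p = 0.990), and its sign turned under several scalings, with -0.32 under library totals. In these libraries 8 plasmacytoid dendritic cell markers summed to 744 to 778 CPM in Ctrl and to 262 to 302 CPM in LIP. Of the 8, 5 were lower in every LIP library, beside 33.1% of all genes tested, and none was at 0 throughout. Most of that sum came from *Irf8*, *Spib* and *Tcf4*, which B cells express too. *Siglech*, which marks these dendritic cells more narrowly, averaged 2.20 ± 0.981 CPM in Ctrl and 2.21 ± 2.13 CPM in LIP (SD, n = 3 each). *Ccr9*, with a mean of 7.15 CPM in Ctrl and 2.26 in LIP, and *Pacsin1*, with 10.7 and 1.11, were lower in every LIP library. *Siglech*, *Klk1* and *Cox6a2* overlapped between the groups. *Siglech*, *Ccr9*, *Pacsin1*, *Klk1* and *Cox6a2* lay below the limit on FPKM and were not tested. The part of plasmacytoid dendritic cells in the *Bst2* values was not tested.

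*Xaf1* (ENSMUSG00000040483, chromosome 11 from 72301629 to 72313733) encodes an antagonist of the apoptosis inhibitor XIAP. It measured 21.0, 24.1 and 21.3 CPM in Ctrl and 25.7, 28.3 and 20.0 CPM in LIP. LIP 3 was the lowest of the 6 libraries and LIP 2 the highest, and the log2 fold change of 0.15 had a standard error of 0.199 (edgeR adjusted p = 0.535). *Xiap* itself, with a log2 fold change of 0.24, was not called either (edgeR adjusted p = 0.335).

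*Ifi44* (ENSMUSG00000028037, chromosome 3 from 151730922 to 151749960), a gene named for its induction by interferon, had the lowest level of the 10. It was counted with 135, 15 and 44 reads in Ctrl and with 47, 28 and 0 reads in LIP. The 0 in LIP 3 allows a level of up to 0.0635 CPM by counting error alone (3 reads). Without the filter the log2 fold change was -1.09 with a standard error of 1.5 (edgeR adjusted p = 0.650). The coefficient of variation within Ctrl was 95.7%, and no difference between the groups was detectable beyond this spread.

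The spread between libraries differed from gene to gene. The biological coefficient of variation that edgeR assigned was 0.597 for *Mx1*, above the median of 0.221 over all genes tested, and 0.206 for *Cmpk2*, 0.122 for *Rtp4*, 0.116 for *Rsad2* and 0.101 for *Samhd1*, below it. The Ctrl libraries did not rank alike either. Ctrl 1 was the highest Ctrl library for *Rsad2*, *Cmpk2*, *Mx1*, *Mx2* and *Ifi44* and the lowest for *Bst2*, *Rtp4*, *Mov10* and *Xaf1*. Over all genes tested, Ctrl 1 was highest in 35.0% and lowest in 35.1%.

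Scaling moved all genes together, so the distance of a gene from the median of all genes was nearly fixed. Over all genes tested, the middle value of the log2 fold change was -0.42 with library totals, -0.05 with median-of-ratios size factors and -1.98 with scaling on mature neutrophil markers. Relative to that median, *Rtp4* lay 1.86 to 1.87 above under every scaling, *Mov10* 1.86 to 1.88, *Cmpk2* 1.20 to 1.22, *Samhd1* 1.01 and *Rsad2* 0.46 on the log2 scale. *Xaf1* lay 0.24 to 0.25 and *Bst2* 0.09 to 0.11 above the median, and *Mx1* lay at -0.15 to -0.11. The sign of the change itself was less stable. With library totals *Rtp4* was at 1.45, *Mov10* at 1.45, *Cmpk2* at 0.79 and *Samhd1* at 0.59, each still called, while *Rsad2* was at 0.04. With scaling on mature neutrophil markers *Rtp4* and *Mov10* were both at -0.11 and not called, whereas *Rsad2* at -1.53, *Bst2* at -1.88 and *Xaf1* at -1.74 were lower. The 20 mature neutrophil markers had a median log2 fold change of 1.85 under TMM scaling, beside 1.77 for both *Rtp4* and *Mov10*.

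**Figure D4:**
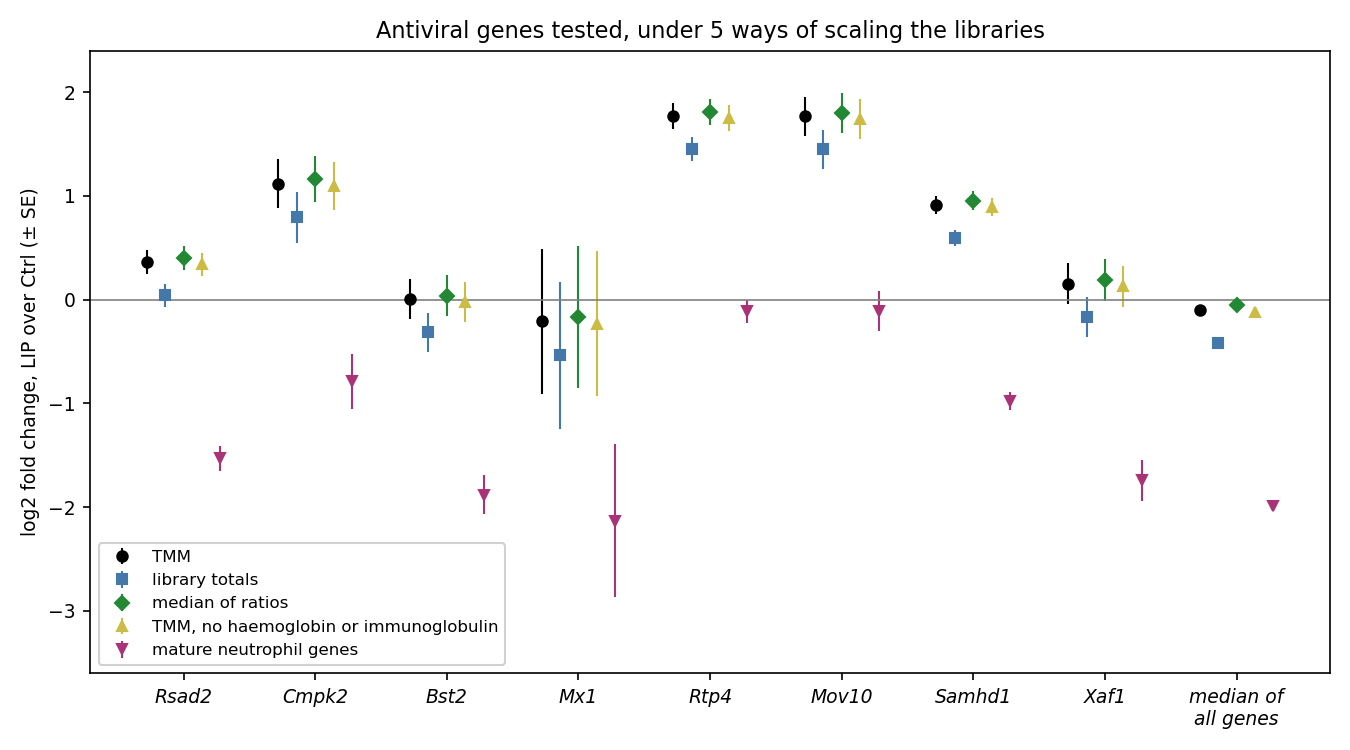
Log2 fold change (LIP minus Ctrl) of the 8 genes tested under 5 scalings of the libraries, one symbol per scaling, with bars for the standard error, and the median of all genes tested at the right. Points of one gene shift together with the median, and only scaling on mature neutrophil markers puts *Rtp4*, *Mov10*, *Cmpk2*, *Samhd1* and *Rsad2* below 0.

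Most other antiviral effectors were also higher in LIP. Of 50 such genes on a list of interferon-induced effectors, 48 were tested. In LIP 33 were higher and 2 were lower, beside 26.5% and 27.2% of all genes tested. Their median log2 fold change was 1.02 against -0.09 for all genes. Scaling on mature neutrophil markers, though, gave 1 higher and 36 lower, beside 42 and 9374 of all 10440 genes tested. The largest rises were those of *Ifitm1*, a membrane protein that blocks viral entry, at 2.57 (standard error 0.0972, edgeR adjusted p = 5.49e-08), of *Slfn4*, a Schlafen family gene of myeloid cells, at 2.39 and of *Oas1g*, a 2'-5' oligoadenylate synthetase, at 2.26. The falls were those of *Pml*, the scaffold of nuclear bodies, at -1.97 (edgeR adjusted p = 1.33e-05) and of *Shisa5*, a protein of the endoplasmic reticulum, at -0.90. The median of this list lay above the 0.64 of the 8 genes described here, and no test of that difference was made. In the Gene Ontology annotation carried by the table, 6 of the 10 genes bear the term defense response to virus directly (*Rsad2*, *Bst2*, *Mx2*, *Rtp4*, *Mov10* and *Samhd1*). Of the 129 tested genes with this term, 63 were higher and 20 lower, with a median of 0.47, beside the same shares of all genes tested. No count under other scalings is given for this term.

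Among 16 genes of the IFN-I receptor and its signalling, 10 were higher and 1 was lower, beside 26.5% and 27.2% of all genes tested. Their median was 0.52. With scaling on mature neutrophil markers these counts were 0 and 15, beside 42 and 9374 of all 10440 genes tested. Both receptor chains were higher, *Ifnar1* at 0.62 and *Ifnar2* at 0.97, as was *Irf9* at 1.11, whereas *Stat2* at 0.46 was not called (edgeR adjusted p = 0.0633). The largest rises were those of *Socs3*, a feedback inhibitor of JAK signalling, at 1.82, of *Irf7*, the transcription factor that amplifies IFN-I production, at 1.16 and of *Usp18*, an ISG15 protease that also restrains IFNAR2 and is on the effector list too, at 1.14. *Socs1*, the other feedback inhibitor of that family listed, fell by 0.55 on the log2 scale (edgeR adjusted p = 0.0149), and without LIP 2 no gene of the list was lower. With library totals 6 of the 16 were higher, beside 1919 of all 10440 genes tested.

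Deoxynucleotide metabolism, the pathway on which SAMHD1 acts, gave 2 higher and 4 lower of 15 tested genes, beside 26.5% and 27.2% of all genes tested, with a median of -0.32. With scaling on mature neutrophil markers these counts were 0 and 14, beside 42 and 9374 of all 10440 genes tested. *Dck*, the kinase that salvages deoxycytidine, was at 1.92 (standard error 0.187, edgeR adjusted p = 1.30e-05). *Cmpk1*, the cytosolic counterpart of *Cmpk2*, was at 0.41 (edgeR adjusted p = 0.0190). The falls named by size were those of *Dtymk*, thymidylate kinase, at -1.59, of *Nt5c*, a deoxynucleotidase, at -1.01 and of *Nme1*, a nucleoside diphosphate kinase, at -0.99.

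Relatives and partners of the 10 genes gave 5 higher and 3 lower of 15 tested, near the shares of 26.5% and 27.2% of all genes tested, with a median of -0.12. With scaling on mature neutrophil markers these counts were 0 and 15, beside 42 and 9374 of all 10440 genes tested. Without Ctrl 3 or without LIP 3, 3 were higher and 1 was lower. Without LIP 1, 3 were higher, and without Ctrl 1 or without LIP 2, 1 was lower. *Dnm2*, dynamin 2, at 0.89 and *Opa1*, the mitochondrial fusion GTPase, at -0.80 are both of the dynamin superfamily to which the MX proteins belong. *Birc3*, an apoptosis inhibitor that belongs with XIAP, was at 0.89, and *Ago2*, the Argonaute with which MOV10 associates, at 0.49. *Fdps*, the farnesyl diphosphate synthase that viperin was first found to bind, was at -1.45, and *Ciao2b*, of the cytosolic iron-sulfur assembly machinery that loads viperin, at -0.57.

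**Figure D5:**
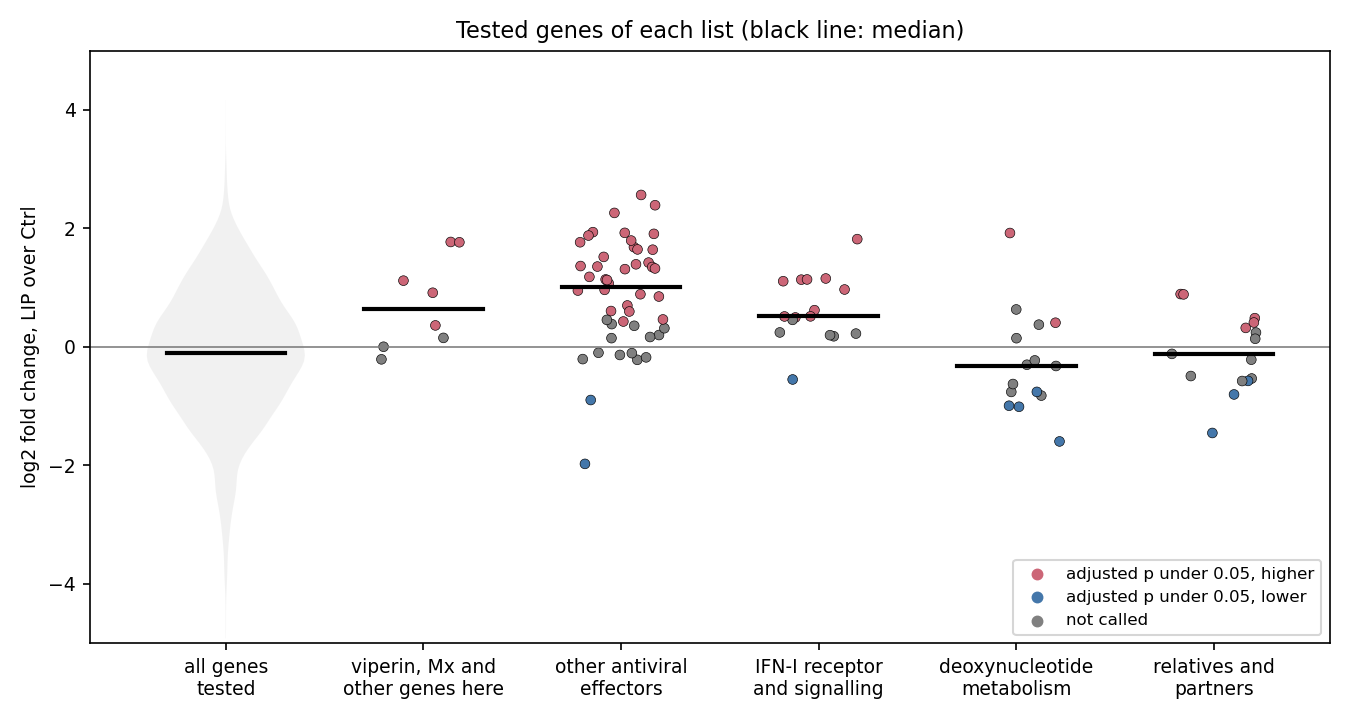
Log2 fold change (LIP minus Ctrl, edgeR with TMM scaling) of the tested genes of each list, with called and uncalled genes in different colours, beside the distribution of all 10440 genes tested. The axis stops at 5 on either side of 0, and 12 genes of the full distribution lie outside it. The median is 0.64 for the antiviral genes described here and 1.02 for the other antiviral effectors.

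For *Rsad2* and *Samhd1*, the genes of most similar course over the 6 libraries were looked up among the 3386 genes that averaged 10 FPKM or more, by the root mean square difference of centred log2 CPM. For *Rsad2* these were *Pcmt1* (0.0504), *Dctn2* (0.0652), *Rock1* (0.0689), *Ap2s1* (0.0713) and *Nr3c1* (0.0731), none of them on the effector lists. For *Samhd1* they were *Hacd2* (0.0367), *Itm2b* (0.0369), *Mpc1* (0.0423), *Junb* (0.0443) and *Ifnar2* (0.0456). The measure includes the difference between the groups, so it picks genes of similar fold change. The log2 fold changes of the genes closest to *Samhd1* were 0.92 to 0.97, beside its own 0.92, and a shared regulation was not tested.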

How the data were processed

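RNA of neutrophils from PB was measured in 6 Smart-seq2 libraries, 3 Ctrl and 3 LIP. The authors deposited 1 table with read counts per gene, which are not normalized, and FPKM values, which are scaled by gene length and library size. The processing notes name cutadapt 1.9, FastQC and GRCm38, while the aligner, the counting tool and its strand setting are not given in the sources used here. Smart-seq2 carries no molecular identifiers, so floors cover counting error only. The labels give replicates and no more, and nothing there says that the pools were sorted on separate days.

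Read counts were fitted in R 4.3.3 with edgeR 4.0.16 (TMM scaling, quasi-likelihood test) over genes that averaged 1 FPKM or more, with Benjamini-Hochberg adjustment over all genes tested. The standard error was taken as the log2 fold change divided by the square root of the F statistic. For 50 duplicated gene names the entry with the higher mean FPKM was used. Ratios were compared by the exact permutation test. DESeq2 1.42.0, limma 3.58.1 on log2(FPKM + 1) and log2(FPKM + 0.1), other scalings and filters, a replicate block and leaving out each library were alternatives. The edgeR fit with library totals and the DESeq2 fit were tested on simulated counts, and TMM scaling was not part of that test.

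The genes described and all lists were chosen with earlier results of these data known. Named were the 10 genes, the 3 largest called rises and falls of each pathway list, and the 5 genes of closest course to *Rsad2* and to *Samhd1*. Further signalling genes (*Ifnar1*, *Ifnar2*, *Stat2*, *Irf9*) and *Xiap* were named after their values were seen. Mouse protein sequences were not used here.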

Additional observations from a re-analysis of the deposited data

How the results depend on the processing

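*Rtp4*, *Mov10*, *Samhd1* and *Cmpk2* were higher in LIP in all 6 fits that left out a library and under every alternative tried but the scaling on mature neutrophil markers, and the differences in the log2 ratios of *Rsad2* to *Cmpk2* and of *Samhd1* to *Rsad2* kept their sign under the alternatives tried for them. That of *Mx1* to *Mx2* ran from -0.15 to 2.48 without single libraries. *Rsad2* was the call that processing decided most often: with limma it was at 0.05 on the log2 scale (adjusted p = 0.720 with a pseudocount of 1), with a mean FPKM of at least 5 at 0.20 (edgeR adjusted p = 0.127), and with no filter at 0.40 (edgeR adjusted p = 0.0511). The causes were not tested.

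With scaling on mature neutrophil markers, 42 of all genes were higher and 9374 lower, the antiviral genes described here gave 0 higher and 6 lower, other effectors 1 and 36, IFN-I signalling 0 and 15, deoxynucleotide metabolism 0 and 14, and relatives and partners 0 and 15. *Rsad2* was then at -1.53, *Cmpk2* -0.79, *Bst2* -1.88, *Rtp4* -0.11, *Mov10* -0.11, *Samhd1* -0.98 and *Xaf1* -1.74, and *Mx1*, at -2.13, was called. With library totals, 1919 of all genes were higher and 4146 lower. Then 7 other effectors were lower and 6 IFN-I signalling genes higher. Deoxynucleotide metabolism gave 1 higher and 8 lower, relatives gave 2 and 5, *Bst2* was at -0.32 and *Xaf1* at -0.17. With limma, 2010 of all genes were higher and 4249 lower for a pseudocount of 1, and 1974 and 4144 for 0.1. For both pseudocounts, 7 other effectors were lower, deoxynucleotide metabolism gave 1 higher and 9 lower, and 2 relatives were higher. *Bst2* was at -0.28 and *Xaf1* at -0.13 with a pseudocount of 1, and at -0.29 and -0.16 with 0.1. With a mean FPKM of at least 5, which leaves fewer genes, 1768 genes were higher and 1869 lower, 5 other effectors were lower, 1 deoxynucleotide gene was higher, relatives gave 2 higher and 1 lower, and *Bst2* was at -0.16. No filter and filterByExpr each left 1 relative lower, beside 2184 of 29097 and 2688 of 16402 genes. TMM without haemoglobin and immunoglobulin genes put *Bst2* at -0.020.

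Without single libraries, IFN-I signalling had 0 to 1 genes lower (0 without LIP 2), relatives and partners 3 to 5 higher (3 without Ctrl 3, LIP 1 or LIP 3) and 1 to 2 lower (1 without Ctrl 1, Ctrl 3, LIP 2 or LIP 3). *Bst2* ran from -0.13 (without Ctrl 1) to 0.13 and was at -0.05 without LIP 1, and *Mx1* ran from -0.97 to 0.30 (without LIP 1) and was at 0.07 without Ctrl 1. *Rsad2* ran from 0.28 to 0.45. Of all genes tested, 2419 to 2615 were higher and 2255 to 2770 lower in these fits.

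With the replicate number as a block, 5 of the antiviral genes were higher and 0 lower, 2724 and 2822 of all genes were higher and lower, and *Rsad2* was at 0.36 (edgeR adjusted p = 0.0258). Same-numbered libraries correlated at -0.01, 0.04 and 0.02 in their deviations from the group means, and differently numbered ones at -0.05 to 0.03. The labels do not say whether same-numbered pools were handled together, and these correlations cannot decide it. The planned ratio of *Ifi44* to *Ifi44l* was not run, as *Ifi44l* matched no name in the table used here. The spread between libraries limits *Mx1*, *Mx2* and *Ifi44*, with coefficients of variation of 42.8% to 95.7% in Ctrl and 71.7% to 95.0% in LIP.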
